A study of Mus musculus with 12 samples.

Results

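The genes described here are factors of the nucleolus that process ribosomal RNA and assemble ribosomal subunits. A list named 56 of them by symbol, and 55 were found among the 15651 genes of the deposited expression table. Noc2l was not analysed here. RNA-seq was done on c-Kit+ splenocytes, the leukemic spleen cells enriched for the stem cell factor receptor Kit, from 3 moribund D/F and 3 moribund T/F mice. Cells of each mouse were cultured with SCF, IL6 and IL3 and received CCS1477, an inhibitor of the bromodomains of the coactivators p300 and CBP, or the vehicle DMSO for 6 hours, which gave 12 libraries in 4 groups of 3. The study asked which programs depend on p300/CBP in leukemias that differ in their epigenetic mutation.

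D/F mice were Dnmt3afl/fl, Flt3ITD/ITD, Mx1Cre and T/F mice were Tet2fl/fl, Flt3ITD/ITD, Mx1Cre, so all groups carried the Flt3 internal tandem duplication and the Cre transgene. Mx1-Cre is driven by an interferon-inducible promoter. No inducer was given, and the floxed alleles were lost spontaneously, 1 or both of them, in blood cells. D/F cells received 4 μM CCS1477 and T/F cells 2 μM, so genotype and dose cannot be told apart in any comparison of their responses. The ages of the mice sequenced were not given in the sources used here. T/F mice are described as becoming moribund younger than D/F mice, so age may differ with genotype too. The values are TPM, a length-normalized share of all transcripts in a library. Without a spike-in, fewer cells of a type, less RNA per cell and a lower share of a transcript cannot be told apart.

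A ribosome starts as a long precursor RNA that RNA polymerase I transcribes from the ribosomal DNA in the nucleolus. Small nucleolar ribonucleoproteins (snoRNPs) guide its chemical modification, the box C/D class for 2'-O-methylation and the box H/ACA class for pseudouridylation. A large assembly, the small-subunit processome, folds and cleaves the part that becomes the 40S subunit, while helicases, GTPases and scaffold proteins build the 60S precursor. Growing cells, leukemic blasts among them, make many ribosomes, and many of these genes are known targets of the transcription factor Myc.

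All 55 members had lower TPM with CCS1477 than with DMSO in each of the 6 mice, where 24.5% of genes tested were lower in all 6. In T/F cells 53 of the 55 were called lower and none higher (limma, adjusted p under 0.05). Of all genes tested there, 17.6% were called lower and 25.8% higher. In D/F cells 36 were called lower and none higher, against 6.51% of all genes tested called lower and 5.14% called higher. In T/F each treated library lay below each DMSO library for all 55 members (22.6% of genes tested), and in D/F for 49 (16.7%), the others being Imp3, Lyar, Rrp1, Emg1, Fbl and Npm1. The median log2 fold change of the members was −1.06 in T/F and −1.09 in D/F, beside 0.075 and 0.057 over all genes tested. The members were not an even block. Their changes ran from −2.68 in D/F and −2.54 in T/F for Gnl3, a nucleolar GTPase also called nucleostemin, to −0.192 and −0.121 for Rrp1, a 60S processing factor.

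**Figure D1:**
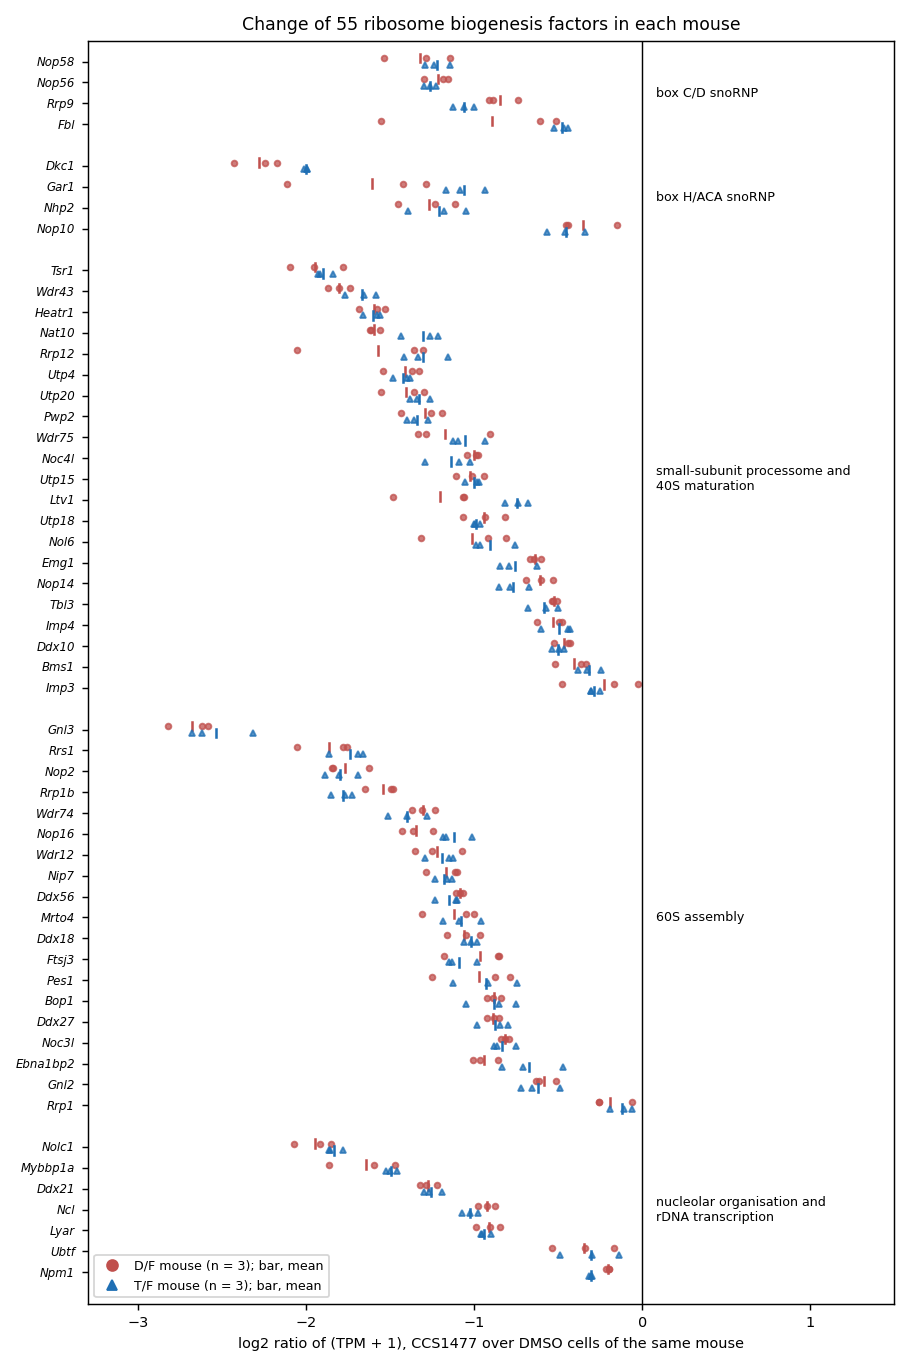
Log2 ratio of (TPM + 1) in CCS1477 over DMSO cells of the same mouse (horizontal axis) for each of 55 members (rows, by role), with circles for the 3 D/F mice, triangles for the 3 T/F mice and a bar for each mean. Each point lies below 0, and within a role the members spread widely, as from Gnl3 to Rrp1 in 60S assembly.

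The calls depended on how the mice entered the fit. With the mouse as a block, which uses the fact that the DMSO and CCS1477 cells of a replicate came from 1 mouse, limma called 50 members lower in D/F (background 18.0%) and 54 in T/F (22.9%). The fall exceeded 2-fold with a call in 30 members in D/F (4.61% of genes tested) and 33 in T/F (4.70%). By mean fold change, 30 members were below −1 on the log2 scale in both genotypes, and 2, Gnl3 and Dkc1, below −2. At the other end 9 members had a fall under 1.5-fold in both genotypes: Tbl3, Imp4, Ddx10, Nop10, Bms1, Ubtf, Imp3, Npm1 and Rrp1. The D/F calls changed with the mouse left out. No gene at all was called without replicate 1 or without replicate 3. In these 2 fits all 55 members were still lower, with medians of −1.105 and −1.088. Of them, 36 and 41 had an unadjusted p under 0.05 (limma). Without replicate 2, which stood apart, 38 members were called lower, where 1647 of 15191 genes tested were. The cause was not tested.

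Taken as a sum, the 55 transcripts made up 7285 ± 1370 TPM (SD, n = 3) with DMSO and 4075 ± 931 with CCS1477 in D/F cells. In T/F cells the sums were 7577 ± 218 and 4232 ± 68.2 TPM. A single gene, Npm1, held 19.8 to 28.9% of the members' sum in DMSO libraries and 32.9 to 43.3% in CCS1477 libraries. Without Npm1, the other 54 members stood at 45.2 ± 1.69% of their DMSO sum in the D/F mice and at 46.4 ± 0.745% in the T/F mice (SD, n = 3 each). The exact permutation test of 3 against 3 libraries gave p = 0.1 for each of these sums, the smallest it can give.

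Some facts on the libraries bear on these values. Myc, the transcription factor known to drive many of the members, had 300, 468 and 367 TPM in D/F DMSO cells and 20.7, 17.8 and 19.0 with CCS1477. In T/F cells Myc had 265, 230 and 311 TPM with DMSO and 24.9, 19.3 and 27.1 with CCS1477. Its part in the members' change was not tested. The gene-level TPM of the targeted genes was at most a weak check of the labels. With DMSO, D/F libraries held 29.3 to 55.7 TPM of Dnmt3a where T/F libraries held 39.9 to 53.9, so these overlapped. D/F libraries held 38.3 to 43.4 TPM of Tet2 where T/F libraries held 29.99 to 35.8. These did not overlap and lay in the direction of the labels, but the difference was not called (limma, adjusted p = 0.803). D/F replicate 2 stood apart, with the highest Kit of the DMSO libraries (149 TPM against 50.5 to 67.0 in the other 5) and the lowest Mpo (1160 against 1240 to 3670). The summed TPM of 8 c-Kit+ myeloid progenitor markers, all of them detected, was 3760 to 10200 with DMSO and 855 to 4340 with CCS1477 in D/F, and 4260 to 6490 and 1710 to 3060 in T/F, so this list moved with the members. Sums of 8 neutrophil markers (all 8 analysed) were 2730 to 9430 and 1670 to 9340 TPM in D/F and 2320 to 7130 and 2510 to 6910 in T/F, and sums of 5 of 6 monocyte and macrophage markers 407 to 1200 and 147 to 557 in D/F and 288 to 476 and 153 to 261 in T/F. The neutrophil list was split. Ly6g, Camp, Retnlg and Cxcr2 were lower with CCS1477 in each mouse. Ngp and Ltf were higher in each T/F mouse and went both ways in D/F, and S100a8 and S100a9 went both ways in both genotypes. Lists of erythroid (6 of 7 analysed), B cell (2 of 5), T or NK cell (4 of 7) and megakaryocyte (3 of 4) markers summed to at most 30.5, 23.2, 28.1 and 199 TPM in any library. The B cell sums were 10.8 to 23.2 with DMSO and 4.13 to 9.54 with CCS1477 in D/F cells. In T/F cells they were 16.8 to 20.5 and 11.3 to 14.2. Most of that was Cd79b. Pax5 had 0.368 to 0.445 TPM with DMSO and 0.488 to 1.32 with CCS1477 in D/F. In T/F it had 1.05 to 2.38 and 0.425 to 0.748. The megakaryocyte sums were 32.6 to 199 and 20.1 to 63.9, and 47.5 to 54.0 and 31.9 to 34.4. Erythroid sums were 12.5 to 30.5 and 10.8 to 25.2, and 18.4 to 29.3 and 14.9 to 22.6. The sums of these lists ranged lower with the drug, but not each marker in them did. Pax5 was higher in D/F. Alas2, an erythroid marker, rose in D/F replicate 2 (17.1 to 20.1 TPM) and T/F replicate 1 (8.12 to 11.0) and fell in the other mice. T or NK cell sums were 17.4 to 28.1 and 13.8 to 23.5 in D/F. In T/F they were 15.8 to 17.1 and 14.3 to 17.3. Their part in the result was not tested.

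Since the members moved together, the letters around their start sites were read. RefSeq promoter windows on GRCm38.p6 were found for 47 of the 55 members. They were searched on both strands for CACGTG, the E-box that Myc with Max and other factors bind, for CCGGAAG, the core of ETS-family sites, and for the palindromic NRF1 site. In the 250 bases before the start, CACGTG was held by 3 of 47 members (6.38%), beside 9.55% of all genes tested with a window and 6.86% of the whole promoter table. CCGGAAG was held by 14 of 47 members (29.8%), beside 15.1% and 7.83%. Of 65 other ribosome biogenesis factors with a window, from a list described below, 8 (12.3%) held CACGTG and 25 (38.5%) CCGGAAG. The NRF1 site was found in 0 of the 47, beside 1.78% of genes tested. The median GC content of these windows was 58.0% in members and 59.2% in genes tested. When the 50 bases after the start were added, a window chosen after the first counts were seen, CACGTG was in 10 of 47 members (21.3%), beside 11.3% of genes tested, and CCGGAAG in 18 (38.3%), beside 19.3%. In the other ribosome biogenesis factors the shares in this longer window were 18.5% for CACGTG and 49.2% for CCGGAAG. The E-box share of the members thus changed with the window from below to above that of genes tested. These shares are descriptions with no test, and a match is not a bound site.

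The stretches before the start that hold these letters are shown for the 3 members with an upstream E-box and for 3 of the members with an ETS core, Nolc1, Heatr1 and Utp4, each of which fell over 2-fold in both genotypes. Motifs are in capitals, and CTTCCGG is CCGGAAG read on the other strand. Imp4 lies at chr1:34439668-34439753 (+), Nop2 at chr6:125131783-125131868 (+), Utp18 at chr11:93885767-93885826 (−), Nolc1 at chr19:46075793-46075846 (+), Heatr1 at chr13:12395319-12395374 (+) and Utp4 at chr8:106893557-106893639 (+), each written 5′ to 3′ on the strand of its gene.
Imp4: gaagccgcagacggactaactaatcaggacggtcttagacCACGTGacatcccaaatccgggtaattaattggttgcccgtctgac
Nop2: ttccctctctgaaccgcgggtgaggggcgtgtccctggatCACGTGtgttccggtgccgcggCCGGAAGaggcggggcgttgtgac
Utp18: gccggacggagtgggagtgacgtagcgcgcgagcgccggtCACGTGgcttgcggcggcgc
Nolc1: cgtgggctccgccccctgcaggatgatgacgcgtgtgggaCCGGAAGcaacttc
Heatr1: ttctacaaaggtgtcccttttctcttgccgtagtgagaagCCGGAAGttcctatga
Utp4: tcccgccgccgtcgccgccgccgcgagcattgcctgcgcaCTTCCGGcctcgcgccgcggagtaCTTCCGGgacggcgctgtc

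The 7 members with an E-box in the first 50 transcribed bases were Tsr1, Wdr43, Mybbp1a, Utp4, Utp20, Ltv1 and Pes1, whose log2 fold changes lay between −1.95 and −0.972 with the D/F cells and between −1.90 and −0.747 with the T/F cells. The sites of the 2 with the largest falls are shown, with the E-box in capitals. That of Tsr1 lies 25 bases into the transcript at chr11:74898092-74898121 (+) and that of Wdr43 18 bases in at chr17:71616220-71616249 (+).
Tsr1: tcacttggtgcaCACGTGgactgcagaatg
Wdr43: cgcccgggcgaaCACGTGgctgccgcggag

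Among the upstream E-box members, Nop2 changed by −1.77 in D/F and −1.80 in T/F on the log2 scale. Utp18 had −0.94 and −0.987, and Imp4 had −0.533 and −0.493. Whether the letters had a part in these changes was not tested.

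The box C/D role held 4 members: Nop56, Nop58 and Fbl, from the core of the snoRNPs for 2'-O-methylation, and Rrp9, which is not core. The median log2 fold change of these 4 was −1.05 in D/F, beside −1.14 in T/F. In T/F all 4 were called lower, and in D/F 3 of 4 were. Snu13, the other core protein, was listed outside the members. It had −0.746 in D/F, not called (limma, adjusted p = 0.0798), and −0.767 in T/F (adjusted p = 0.001). Of all genes tested, 17.6% were called lower in T/F and 6.51% in D/F (18.0% with the block). These shares stand beside each count of calls by role below as well. Nop56 and Nop58 are paired scaffold proteins of the particle. Nop56 had 344, 319 and 375 TPM in D/F DMSO cells of replicates 1, 2 and 3 and 139, 140 and 168 with CCS1477, and in T/F 351, 332 and 369 against 142, 138 and 157. No treated library reached a DMSO library. The log2 fold change was −1.22 ± 0.155 (SE) in D/F (limma, adjusted p = 0.00954) and −1.26 ± 0.079 in T/F (adjusted p = 0.000418). Nop58 gave 164, 170 and 213 TPM against 66.8, 58.1 and 95.6 in D/F and 192, 181 and 192 against 80.8, 73.3 and 86.3 in T/F, with changes of −1.32 ± 0.229 (adjusted p = 0.0207, limma) and −1.22 ± 0.08 (adjusted p = 0.000449). Within mice, the changes of Nop58 and Nop56 differed by −0.035 ± 0.159 (SD, n = 6), with Nop58 falling more in 2 of 6. Rrp9, which binds the U3 snoRNA, had changes of −1.06 in T/F (limma, adjusted p = 0.0011) and −0.846 in D/F (adjusted p = 0.048), a D/F call lost with a pseudocount of 0.1 (0.0577) and without replicate 2 (0.0669).

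Fbl, fibrillarin, is the methyltransferase of the box C/D particle and a standard marker of the nucleolus. In D/F it had 117, 106 and 166 TPM with DMSO and 81.6, 35.5 and 108 with CCS1477. Replicate 3 with CCS1477 was above replicate 2 with DMSO, so the groups overlapped. In T/F the values were 139, 138 and 136 against 102, 95.5 and 98.1, with no overlap. Its change was −0.891 ± 0.423 in D/F, which was not called (limma, adjusted p = 0.213; 0.0495 with the mouse as a block), and −0.478 ± 0.058 in T/F, which was (adjusted p = 0.00198). Replicate 2 of D/F kept 33.5% of its DMSO value, while D/F replicates 1 and 3 kept 69.8 and 65.4% and the T/F mice 69.2 to 73.4%.

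The box H/ACA proteins, the core of the pseudouridylation particles and, in part, of telomerase, spread widely. All 4 were called lower in T/F (median −1.14), and 2 of 4 in D/F (median −1.44), where all 4 were lower in each mouse. Dkc1, dyskerin, the pseudouridine synthase, is X-linked (chromosome X: 75095854 to 75109777, plus strand). It had 266, 302 and 335 TPM in D/F DMSO cells and 58.2, 55.3 and 69.8 with CCS1477. In T/F it had 261, 247 and 276 against 64.7, 61.2 and 67.8, and in all 6 mice between 18.3 and 24.8% of the DMSO value was left. The log2 fold changes were −2.28 ± 0.169 (limma, adjusted p = 0.00337) and −2.002 ± 0.074 (adjusted p = 0.000242).

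In the same mouse, the change of Dkc1 minus that of Gar1 was −0.806 ± 0.265 log2 units (SD, n = 6). Gar1, a subunit needed for catalysis, had 136, 123 and 187 TPM with DMSO against 50.01, 27.5 and 75.8 in D/F, and 137, 135 and 129 against 64.4, 59.5 and 66.6 in T/F. The changes were −1.61 ± 0.378 (limma, adjusted p = 0.0436) and −1.06 ± 0.07 (adjusted p = 0.000449). The D/F call was lost when libraries were rescaled to their median gene (adjusted p = 0.0525) or with a pseudocount of 0.1 (adjusted p = 0.0569). Nop10, the small protein that holds the H/ACA trimer together, had 88.3, 82.9 and 112 TPM against 79.4, 60.8 and 81.6 in D/F. In T/F it had 101, 81.0 and 93.6 against 67.5, 63.7 and 67.8, and it fell there by 0.456 ± 0.095 on the log2 scale (limma, adjusted p = 0.0116). Its D/F value was −0.35 ± 0.196, not called (adjusted p = 0.282; 0.0641 with the block). The change of Dkc1 minus that of Nop10 was −1.74 ± 0.237 (SD), negative in 6 of 6 mice. Nhp2, the RNA-binding protein of the particle, fell by 1.21 in T/F. In D/F it had −1.27, not called in the main fit (limma, adjusted p = 0.0808) but called with the block (0.00548).

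**Figure D2:**
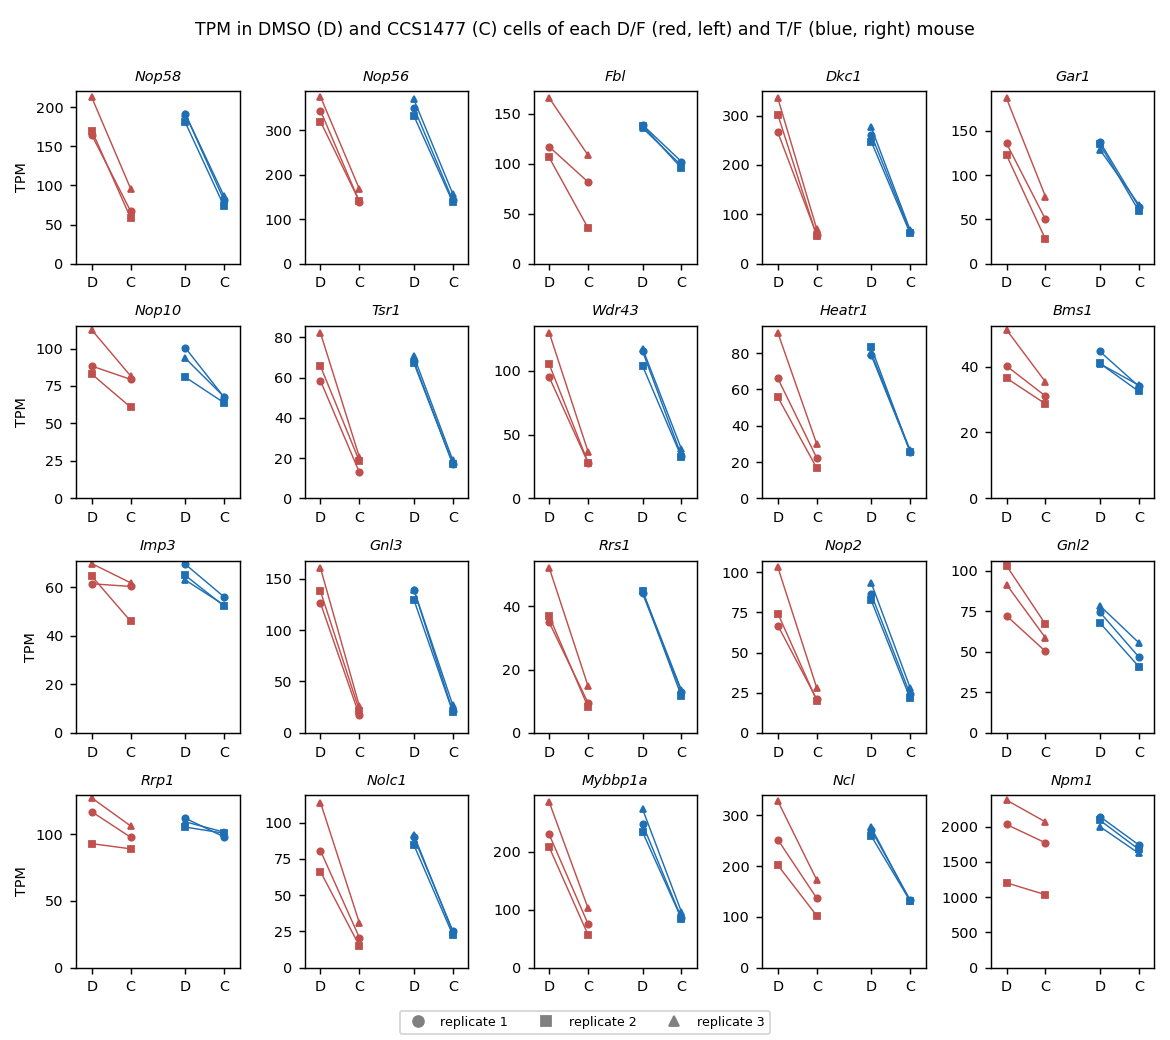
TPM (vertical axis, from 0) in DMSO (D) and CCS1477 (C) cells of each mouse, lines joining the libraries of 1 mouse, for the 20 members named by rule; D/F mice are red on the left and T/F mice blue on the right, and the marker shape gives the replicate number, which pairs nothing across genotypes. Lines fall steeply for Gnl3 and Dkc1 and are nearly flat for Rrp1 and Npm1, and for genes such as Fbl and Nolc1 the T/F lines lie closer together than the D/F lines.

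The 21 members of the small-subunit processome and of later 40S maturation were all called lower in T/F (median −1.004). In D/F 13 of 21 were called lower (median −1.02), and 20 with the block. The UTP-A subcomplex, which joins the nascent precursor RNA first, is represented by Heatr1, Utp4, Utp15, Wdr43 and Wdr75, and these 5 were called in both genotypes. Nol11, a UTP-A protein outside the 55, had a smaller change, −0.481 in D/F (limma, adjusted p = 0.122) and −0.484 in T/F (adjusted p = 0.00264). With it, the UTP-A medians were −1.30 in D/F and −1.24 in T/F. The UTP-B subcomplex is represented by Pwp2, Tbl3 and Utp18, and Wdr3, Wdr36 and Utp6 lie outside the 55. Of these 6, all were called in T/F and 3 in D/F, where Tbl3, Wdr36 and Utp6 were not, and the medians were −0.848 in D/F and −0.832 in T/F. These groupings and the contrasts between members of a mouse were made after the values were seen.

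Tsr1, a GTPase-like factor of late 40S maturation, showed the largest change of this group. It had 58.4, 65.6 and 82.1 TPM with DMSO and 12.9, 18.4 and 20.5 with CCS1477 in D/F, and 68.1, 67.3 and 70.6 against 17.1, 17.0 and 19.0 in T/F. The groups were far apart in both genotypes. Its changes were −1.95 ± 0.227 (limma, adjusted p = 0.00834) and −1.90 ± 0.068 (adjusted p = 0.000242). Wdr43, a UTP-A protein, had 95.1, 105 and 130 TPM against 27.8, 28.0 and 36.5 in D/F and 116, 104 and 118 against 33.2, 32.3 and 38.6 in T/F. Its log2 fold changes were −1.81 ± 0.192 and −1.67 ± 0.095. Heatr1, another UTP-A protein, which also supports transcription of the ribosomal DNA, had 66.1, 55.7 and 91.3 TPM against 22.2, 16.6 and 29.9 in D/F. In T/F it had 78.9, 83.3 and 80.2 against 25.8, 25.6 and 26.5, and its changes were −1.60 in both genotypes (SE 0.277 and 0.058).

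Bms1, the GTPase of the processome, and Imp3, a protein that helps the U3 snoRNA pair with the precursor, had the smallest mean changes of the group. Bms1 had 40.2, 36.5 and 51.2 TPM with DMSO and 31.0, 28.7 and 35.3 with CCS1477 in D/F, and 44.6, 40.9 and 40.8 against 34.0, 32.4 and 34.3 in T/F. The changes were −0.407 ± 0.183 in D/F (limma, adjusted p = 0.193; 0.0319 with the block) and −0.317 ± 0.066 in T/F (adjusted p = 0.0116). Imp3 in D/F had 61.5, 64.6 and 69.8 TPM against 60.4, 46.0 and 61.9, and its groups overlapped. In T/F the values were 69.6, 65.0 and 63.1 against 56.1, 52.3 and 52.7, a change of −0.289 ± 0.068 (limma, adjusted p = 0.0178), next to −0.226 ± 0.172 in D/F (adjusted p = 0.422). The change of Tsr1 minus that of Bms1, its relative by sequence, was −1.56 ± 0.113 log2 units (SD), negative in 6 of 6 mice.

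Among the 19 factors of 60S assembly, 18 were called lower in T/F (median −1.09) and 15 in D/F (median −1.09, and 18 called with the block). Gnl3 had the largest change of all 55. It had 126, 138 and 160 TPM with DMSO and 17.0, 21.5 and 25.9 with CCS1477 in D/F, and 139, 130 and 139 against 20.9, 20.3 and 27.1 in T/F. Between 13.4 and 19.5% of the DMSO value was left in each mouse. The changes were −2.68 ± 0.201 (limma, adjusted p = 0.0035) and −2.54 ± 0.122 (adjusted p = 0.000311).

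Rrs1, which helps to place the 5S ribonucleoprotein, had 34.9, 36.9 and 52.2 TPM against 9.46, 8.13 and 14.8 in D/F and 44.1, 44.8 and 44.8 against 13.0, 11.6 and 13.5 in T/F. Its log2 fold changes were −1.86 ± 0.266 and −1.74 ± 0.074. Nop2, a cytosine-5 methyltransferase of the large-subunit RNA whose promoter is shown above, had 66.8, 74.3 and 103 TPM against 21.0, 20.0 and 28.0 in D/F. In T/F it had 86.3, 82.5 and 93.3 against 24.0, 21.5 and 28.2, and its changes were −1.77 ± 0.225 and −1.80 ± 0.112. In these 2 genes each treated library was below each DMSO library of its genotype.

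Gnl2, another GTPase of the family and a factor of 60S precursors, had a smaller change. It had 72.2, 103 and 91.5 TPM against 50.3, 67.1 and 58.6 in D/F and 74.4, 67.9 and 78.5 against 46.8, 40.9 and 55.6 in T/F. It fell by 0.621 ± 0.127 in T/F (limma, adjusted p = 0.0109) and had −0.586 ± 0.197 in D/F (adjusted p = 0.104; 0.0128 with the block). The change of Gnl3 minus that of Gnl2 was −2.004 ± 0.167 log2 units (SD), negative in 6 of 6 mice. The paralogs Rrp1 and Rrp1b differed in the same way. Rrp1 had 117, 93.0 and 127 TPM against 97.8, 89.2 and 106 in D/F and 112, 106 and 110 against 98.1, 101 and 102 in T/F, and was called in neither genotype (−0.192 ± 0.176 and −0.121 ± 0.058; limma, adjusted p = 0.508 and 0.147). Rrp1b had 153, 179 and 169 TPM against 48.2, 62.7 and 59.8 in D/F and 161, 159 and 191 against 46.7, 43.3 and 57.1 in T/F. Its log2 fold changes were −1.54 ± 0.165 and −1.78 ± 0.13 (limma, adjusted p = 0.00709 and 0.000536), and its change minus that of Rrp1 in the same mouse was −1.51 ± 0.198 (SD, n = 6). Reads of paralogs can be split unevenly by transcript quantification, and that was not tested here. The PeBoW complex (Pes1, Bop1 and Wdr12), which is needed to process the 32S precursor, had medians of −0.972 and −0.931, with Bop1 not called in D/F.

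The 7 genes of nucleolar organisation and ribosomal DNA transcription had medians of −0.925 in D/F, where 3 were called lower, and −1.02 in T/F, where 6 were. Nolc1, a chaperone of snoRNPs known as Nopp140, had 80.6, 66.2 and 114 TPM against 20.6, 14.95 and 30.8 in D/F and 89.8, 84.6 and 91.5 against 25.4, 22.6 and 24.5 in T/F. Its changes were −1.95 ± 0.315 (limma, adjusted p = 0.018) and −1.83 ± 0.072 (adjusted p = 0.000246). Mybbp1a, a nucleolar Myb-binding protein that acts on ribosomal DNA transcription, had 229, 208 and 285 TPM against 75.1, 56.3 and 102 in D/F. In T/F it had 247, 234 and 273 against 85.1, 84.4 and 95.9, with changes of −1.65 ± 0.255 and −1.50 ± 0.09.

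Ncl, nucleolin, a major RNA-binding protein of the nucleolus, had 252, 202 and 328 TPM against 137, 102 and 173 in D/F and 272, 259 and 276 against 133, 131 and 131 in T/F. In T/F it fell by 1.02 ± 0.058 (limma, adjusted p = 0.000343). The D/F value was −0.925 ± 0.267, with no overlap between groups but an adjusted p of 0.0722 by limma (0.00602 with the block). Npm1, nucleophosmin, the chaperone that is often mutated in human AML, was the most abundant member. It had 2030, 1202 and 2376 TPM with DMSO and 1770, 1034 and 2067 with CCS1477 in D/F, and 2142, 2090 and 2000 against 1740, 1677 and 1621 in T/F. The D/F groups overlapped widely, with replicate 2 low in both libraries. In each D/F mouse 86.0 to 87.2% of the DMSO value was left and in each T/F mouse 80.2 to 81.2%. The change was −0.307 ± 0.063 in T/F (limma, adjusted p = 0.0113) and −0.205 ± 0.358 in D/F (adjusted p = 0.746; 0.116 with the block). The change of Ncl minus that of Npm1 in the same mouse was −0.719 ± 0.042 (SD, n = 6). Ubtf, the factor that keeps ribosomal DNA open for RNA polymerase I, had −0.35 in D/F and −0.308 in T/F. In T/F it was not called in the main fit (limma, adjusted p = 0.0736) but was called with the block (0.0468).

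**Figure D3:**
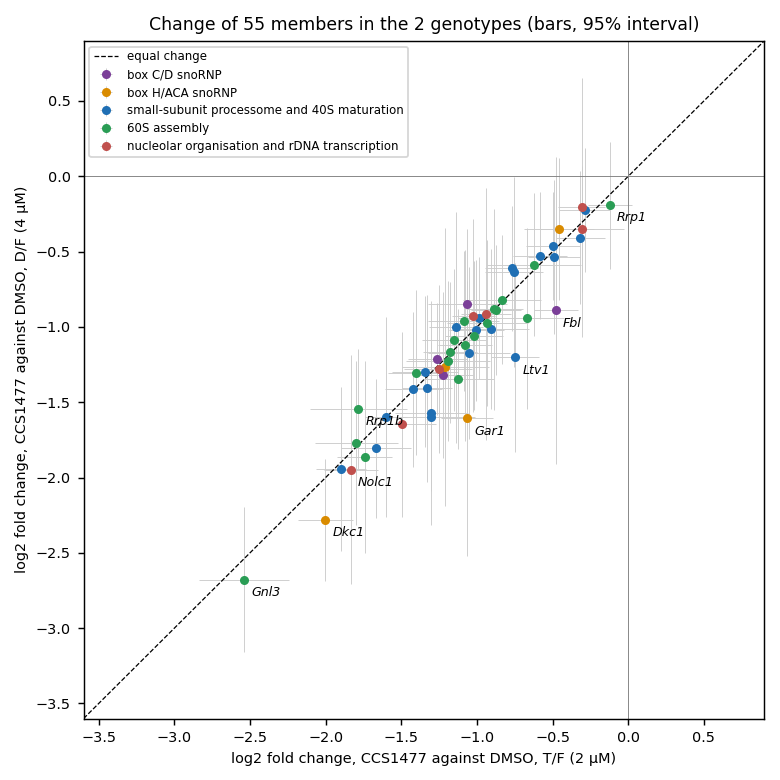
Log2 fold change of (TPM + 1), CCS1477 against DMSO, in T/F at 2 μM (horizontal axis) and D/F at 4 μM (vertical axis) for 55 members, colored by role, with 95% intervals from limma and a dashed line of equal change. Points lie along the dashed line, Gar1 and Ltv1 sit farthest below it, and the intervals are long in the D/F direction for genes such as Fbl.

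The genotypes were then set side by side without the drug. In DMSO, no member differed between D/F and T/F by limma (0 called, and 0 at an unadjusted p under 0.05), where 0.0328% of genes tested were called. The log2 differences ran from −0.262 for Emg1 to 0.257 for Gnl2, and the 95% intervals of all 55 lay within 1 log2 unit of 0. In the CCS1477 libraries 0 were called as well. For the response itself, 0 of 55 members had a called difference between genotypes (0 at an unadjusted p under 0.05, and 4 with the mouse as a block, lowest adjusted p = 0.256), and 0 genes of all tested were called. The differences of response ran from −0.545 for Gar1 to 0.239 for Rrp1b. For 50 members the interval lay within 1 log2 unit of 0, and for Fbl, Gar1, Nhp2, Rrp12 and Ltv1 it was wider, as in Gar1 (−1.47 to 0.38). Such intervals do not show equal responses. As a description across 55 genes that share their libraries, the changes in D/F and T/F had Pearson's r of 0.955 and Spearman's rho of 0.935.

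Neither the level with DMSO nor an annotated length ordered the changes. That length was the median over all protein-coding transcripts annotated for a gene, expressed or not. The length of the transcripts present in these cells may differ from it and was not tested. Across the 55 members, the mean log2 fold change and the log2 mean DMSO TPM had r of −0.046 and rho of −0.165. With the log2 of the annotated length r was 0.095 and rho 0.05. A feature that went with larger falls among the members was looked at after the values were seen: 7 of 55 members (12.7%) hold annotated snoRNA or scaRNA genes within their bounds and on their strand in GENCODE vM21, against 227 of 12855 protein-coding genes of the table (1.77%). They were Gnl3, Dkc1, Tsr1, Wdr43, Nop58, Nop56 and Ncl, with Snord19 and Snord69 in Gnl3 and Snord57 and Snord110 in Nop56 among the snoRNAs. Their median log2 fold changes were −1.81 in D/F and −1.67 in T/F, next to −1.02 and −1.04 in the 48 others. With 7 genes chosen on seen values, no test was made. Among the 80 other ribosome biogenesis factors described below, 3 hold such genes, and they went both ways: Ppan had −2.53 in D/F and −2.31 in T/F, Bud23 −0.068 and −0.155, and Nop53 0.311 and 0.292.

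**Figure D4:**
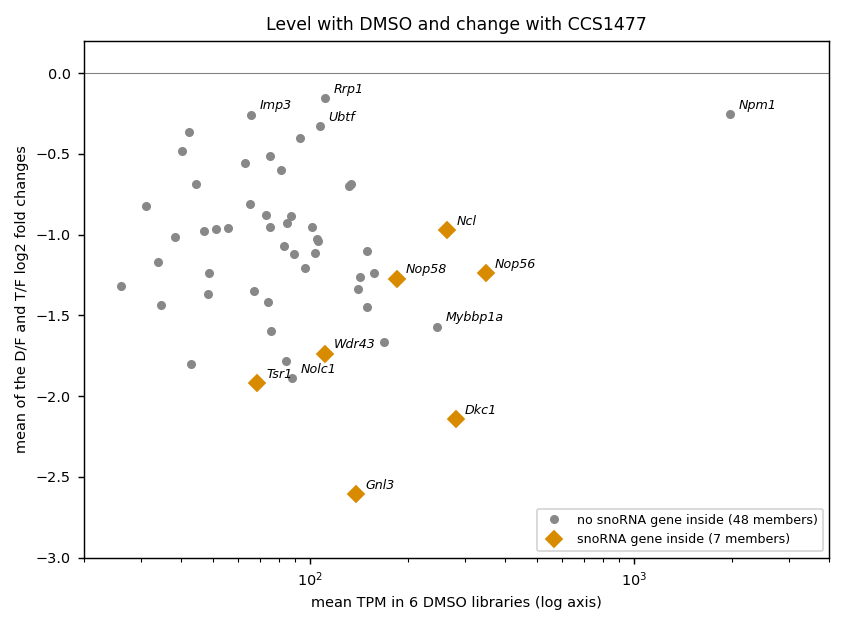
Mean TPM in the 6 DMSO libraries (horizontal log axis) and mean of the D/F and T/F log2 fold changes (vertical axis) for 55 members, with diamonds for the 7 that hold snoRNA genes. Npm1, with 1973 TPM, stands far to the right near 0, the diamonds lie at −0.97 or below, and the other points show no slope.

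A wider list of 80 other ribosome biogenesis factors gave the same direction with a smaller median. In T/F 61 were called lower and 1 higher, and in D/F 29 lower and 0 higher (58 lower with the block), with medians of −0.645 and −0.673. Of all genes tested, 17.6% were called lower and 25.8% higher in T/F. In D/F the shares were 6.51% and 5.14% (18.0% lower with the block). The largest falls were those of Ppan, a 60S assembly factor (147 to 24.8 TPM in D/F and 140 to 27.8 in T/F, means), Mdn1, the AAA ATPase that remodels 60S precursors (94.1 to 26.3 and 90.0 to 28.5), and Nol8 (31.9 to 9.99 and 28.8 to 10.04). The 3 most positive changes were those of Nop53, Tsr3 and Nol7. Nop53, which holds Snord23 and recruits the RNA exosome to 60S precursors, rose in T/F from 102 to 125 TPM (limma, adjusted p = 0.00917), and had 111 and 139 TPM in D/F (adjusted p = 0.326). Tsr3 had log2 fold changes of 0.294 and 0.161 and Nol7 of 0.023 and 0.202 in D/F and T/F, none of them called.

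The D/F mice also differed in the level of the members as a whole. Relative to the D/F mean of each treatment, the members' median deviation was 0.394 log2 units in replicate 3, where 0 of 55 lay below the mean, −0.163 in replicate 1 and −0.288 in replicate 2, where all genes had a median of 0.237. In replicate 2 the lowest deviation was that of Nhp2 (−0.901). In the T/F mice these medians ran from −0.091 to 0.094. Despite these levels, the members' median change with CCS1477 was −1.07, −1.16 and −1.07 in D/F replicates 1, 2 and 3 and −1.09, −1.03 and −1.07 in the T/F mice.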

How the data were processed

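RNA-seq libraries of c-Kit+ splenocytes from 6 mice were analysed. The authors deposited TPM per Ensembl gene, made with kallisto on mm10 per the labels and with AltAnalyze per the study's methods. The version of kallisto and the annotation were not given in the sources used here. TPM keeps no read numbers, so depth is unknown and no count model was fitted. The labels name both ribosomal RNA depletion and an mRNA kit. Each gene of the table reaches 2 TPM in some library. Symbols and positions came from GENCODE vM21 on GRCm38 (15252 genes with a symbol), and promoters from RefSeq GRCm38.p6.

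The log2 of TPM plus a pseudocount of 1 was fitted for the whole table by limma (version 3.58.1, under R 4.3.3). Its moderated test was two-sided with no variance trend, and p-values were adjusted by Benjamini-Hochberg over each gene whose mean reached 1 TPM in a compared group. All 55 members passed. A gene was called at adjusted p under 0.05. Fold changes include the pseudocount, which makes those of low genes smaller. The fits were also run on simulated data, in which a gene had the same spread in all groups. The larger D/F spread was not simulated, so that run does not bear on how firm the D/F calls are. Samples of 1 mouse are named in the labels, and after subtracting group means they correlated at 0.348 to 0.657 (at most 0.133 between mice), so they are paired. The D/F and T/F comparisons share no sample. Alternatives were another pseudocount, other filters, 2 rescalings, a trend, a mouse block, 1 fit of all groups and leaving out each mouse.

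The members, roles and lists were chosen with earlier results of these data known. Full values are given for Ncl, Npm1, Fbl and, in each role, the members with the most and least negative mean change. The other members named were chosen after their values were seen, as were the complexes, the pairs of members, the snoRNA genes and the longer promoter window.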

Additional observations from a re-analysis of the deposited data

How the results depend on the processing

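The members' direction was lower under each alternative run in both genotypes. In D/F, the 36 calls ranged from 0 to 38 when 1 mouse was left out: 0 without replicate 1 and without replicate 3, where the lowest member adjusted p was 0.0999 and 0.177 by limma. In both of these fits no gene of the table was called, while 3739 were called without replicate 2, and the cause was not tested. With the mouse as a replicate block, limma called 50 D/F and 54 T/F members lower, and 6098 instead of 1805 genes in all in D/F. In T/F, the calls were 47, 49 and 51 without replicates 1, 2 and 3. Of all genes tested, 1537 of 15254, 1444 of 15253 and 2201 of 15189 were called lower in these fits. The shared fit of 4 groups called 48 members lower (1601 of 15256 genes tested). With a change above 2-fold also required, 33 were called (4.70% of genes tested). The T/F median was −1.14 with libraries rescaled to their median gene. In the shared fit, which takes the larger D/F spread, the T/F calls of Bms1, Fbl, Imp3, Nop10 and Npm1 were lost (adjusted p = 0.106, 0.33, 0.111, 0.0514 and 0.468). Among the members with full values, the block changed the D/F calls of Ncl, Fbl, Gnl2 and Bms1. Comparisons of the genotypes in DMSO and of the responses gave 0 called members in each alternative. The spread between 3 mice limits the precision, and TPM gives no depth.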
